A study of Mus musculus with 9 samples.

Results

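Solute carriers are membrane proteins that move ions, sugars, amino acids, nucleosides, vitamins, metals and organic acids across the plasma membrane and the membranes of organelles. They are named Slc followed by a family number, and members of a family usually share a substrate class. In dendritic cells, which take up and digest other cells and pathogens, carriers of the endosome and lysosome export the products of digestion, and Slc15a4 also holds the complex that passes signals from endosomal Toll-like receptors to Irf5. The genes described here are the rows with a solute carrier name whose mean over 9 libraries was at least 1 RPKM, a read count divided by gene length and library size, leaving out Slc40a1 and Slc11a1. The members were thus chosen by their symbol and their mean level, and not by a difference between subsets, though with earlier results known. They were 197 of the 14862 genes in the table, or 1.33%. By name 270 rows matched, 71 of them lay below 1 RPKM, and 2 were left out. Of the 197, 191 encode carriers or close relatives of carriers, and 6 carry such a name without being one. Just below the bound were Slc39a5 at 0.997 and Slc18a2 at 0.907 RPKM, and just above it Slc24a5 at 1.01 and Slc23a1 at 1.03 RPKM.

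RNA was sequenced from sorted splenic dendritic cells of C57Bl/6 mice, 8 to 12 weeks old, with 3 libraries for each of 3 subsets and no treatment named in the labels. cDC1 are type 1 conventional dendritic cells, which take up dead cells and cross-present their antigens to CD8 T cells. cDC2 are type 2 conventional dendritic cells, which present antigen mainly to CD4 T cells. The third subset is labelled mcDC, an abbreviation that the field uses for merocytic dendritic cells but that the labels do not expand, and the sources used here give no sort markers for any subset. Whether replicate libraries stem from separate mice is not stated, so the p-values rest on a library-to-library spread that may be technical. The recovered reads numbered 9683350 to 11008672 per cDC1 library, 9187715 to 12429013 per cDC2 library and 5138302 to 8224422 per mcDC library, and each read added 0.0805 to 0.1946 RPKM to a gene 1 kb long. mcDC replicate 3 stood apart: 12.35% of all genes were at 0 in it, against 2.71% to 6.47% in the other libraries, and 16.2% of the genes tested lay more than 2-fold from the mean of the other mcDC libraries on the log2(RPKM + 1) scale. Among the solute carrier genes 5 lay above and 16 below that mean by this margin.

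cDC1 and cDC2 carried the markers of their labels, and no list of markers was run for mcDC. The summed level of 8 cDC1 markers was 1774 to 2142 RPKM in cDC1, 221 to 302 in cDC2 and 522 to 1107 in mcDC, and that of 6 cDC2 markers was 33.8 to 109, 569 to 624 and 261 to 471 RPKM. In cDC1 replicate 1 the cDC2 marker sum was 109 RPKM, against 33.8 and 36.8 in the other cDC1 libraries. Markers of other cells differed too, and the lists of the next 4 cell types were present in the table in whole. The sum of 10 neutrophil markers was 192, 966 and 1616 RPKM in cDC2 replicates 1, 2 and 3, against 14.9 to 43.8 in cDC1 and 40.7 to 51.8 in mcDC, where Camp was at 0 in every library. Other members of that list were present in mcDC, such as Mmp9 at 24.4, 15.3 and 7.4 RPKM and Csf3r at 9.94, 6.66 and 3.39. Mmp9 also fell over cDC2 replicates 1, 2 and 3, at 40.5, 27.1 and 18.5 RPKM, while the sum rose. The sum of 9 red pulp macrophage markers was 333 to 592 RPKM in mcDC, 167 to 193 in cDC2 and 67.6 to 101 in cDC1, with no marker at 0. Of these only Adgre1 had its highest mean outside mcDC, at 91.2 RPKM in cDC2 against 51.8 in mcDC. The sum of 7 monocyte markers was 1006 to 2011 RPKM in cDC2, 415 to 540.3 in mcDC and 151 to 238 in cDC1, and that of 6 natural killer cell markers was 65.8 to 158 in mcDC, 36.3 to 54.9 in cDC1 and 25 to 42.6 in cDC2, both with no marker at 0. Of the monocyte sum Lyz2 alone held 698 to 1462 RPKM in cDC2. Ly6c2 did not follow its order, with means of 36.5 in cDC1, 33.2 in mcDC and 22.7 in cDC2. Nor did Ccr2, with means of 123 in mcDC and 118 in cDC2, while the other monocyte markers did. T cell markers summed to 16.4 to 44.4 RPKM and B cell markers to 19.9 to 40.5 RPKM over all libraries. Plasmacytoid dendritic cell markers summed to 103 to 204 RPKM in mcDC, 91.1 to 153 in cDC1 and 58.9 to 94.6 in cDC2. Most of this sum was Bst2, at 76.5 to 169 RPKM in mcDC, which was not called. The means of Ccr9 and Siglech were higher in cDC1 (9.98 and 8.71 RPKM) than in mcDC (2.21 and 4.03). Those of Tcf4 and Ly6d were higher in mcDC (14 and 8.42 RPKM) than in cDC1 (11.9 and 3.34). In bulk libraries of this kind, fewer cells of a type and less RNA per cell cannot be told apart.

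Promoter windows are shown for 6 genes, because genes that differ together raise the question of which letters their start sites share. The 6 were not picked by a fixed rule, and Slc45a3 among them passed the bound of 1 RPKM only through mcDC. A window holds 250 bases before and 50 after a RefSeq transcript start in build GRCm38.p6, 151 of the 197 genes had one, and 205 windows were searched on both strands for 5 motifs. The motifs were GAGGAAGT (the ETS motif of PU.1), an ETS-IRF composite motif of PU.1 with an IRF factor, an interferon-stimulated response element core of the IRF family, TGANTCA (AP-1) and CACGTG (the E-box read by Tfeb, Myc and related factors). A match to the second can overlap a match to the first or the third. Slc8a2 and Slc16a3, which differed strongly between subsets, and Slc45a3 held none of these letters in the windows shown. That says nothing of the factors themselves. Slc9a9, Slc29a1 and Slc36a1 each held a match, given in capitals: TGANTCA in Slc9a9, the ETS-IRF composite in Slc29a1, and CACGTG at 2 places in Slc36a1. Where a gene had several windows, that with the most matches is shown, so the Slc29a1 window was picked from 8 for its match.
Slc8a2, chr7:16129576-16129875, + strand: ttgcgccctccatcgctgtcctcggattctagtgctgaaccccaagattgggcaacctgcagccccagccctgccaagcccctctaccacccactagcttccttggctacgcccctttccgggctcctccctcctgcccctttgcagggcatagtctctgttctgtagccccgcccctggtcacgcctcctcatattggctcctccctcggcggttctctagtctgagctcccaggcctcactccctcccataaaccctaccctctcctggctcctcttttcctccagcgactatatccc
Slc16a3, chr11:120948817-120949116, + strand: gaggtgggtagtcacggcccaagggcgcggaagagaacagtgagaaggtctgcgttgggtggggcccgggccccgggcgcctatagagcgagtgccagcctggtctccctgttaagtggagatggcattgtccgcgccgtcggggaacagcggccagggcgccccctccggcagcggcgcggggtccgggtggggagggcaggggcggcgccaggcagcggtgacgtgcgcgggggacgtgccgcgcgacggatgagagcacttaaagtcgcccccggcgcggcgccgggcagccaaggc
Slc45a3, chr1:131962665-131962964, + strand, 1 of 2 windows: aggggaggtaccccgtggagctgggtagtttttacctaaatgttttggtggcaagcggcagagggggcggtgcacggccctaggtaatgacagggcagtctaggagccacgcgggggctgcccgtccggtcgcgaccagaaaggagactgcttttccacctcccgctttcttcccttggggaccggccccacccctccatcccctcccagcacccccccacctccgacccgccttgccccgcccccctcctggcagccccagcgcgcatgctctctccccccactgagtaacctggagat
Slc9a9, chr9:94669642-94669941, + strand: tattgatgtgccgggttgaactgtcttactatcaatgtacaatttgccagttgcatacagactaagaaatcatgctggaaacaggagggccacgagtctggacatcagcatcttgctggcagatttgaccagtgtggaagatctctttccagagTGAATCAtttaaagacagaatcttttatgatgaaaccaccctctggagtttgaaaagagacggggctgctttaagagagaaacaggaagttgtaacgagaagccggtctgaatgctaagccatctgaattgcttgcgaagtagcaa
Slc29a1, chr17:45595815-45596114, - strand, 1 of 8 windows: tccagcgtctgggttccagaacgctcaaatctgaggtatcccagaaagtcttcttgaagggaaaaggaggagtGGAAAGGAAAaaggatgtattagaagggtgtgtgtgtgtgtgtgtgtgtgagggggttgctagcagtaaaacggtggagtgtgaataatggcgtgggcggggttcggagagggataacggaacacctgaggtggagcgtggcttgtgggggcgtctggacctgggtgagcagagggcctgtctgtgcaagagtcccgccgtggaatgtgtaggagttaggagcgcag
Slc36a1, chr11:55204090-55204389, + strand: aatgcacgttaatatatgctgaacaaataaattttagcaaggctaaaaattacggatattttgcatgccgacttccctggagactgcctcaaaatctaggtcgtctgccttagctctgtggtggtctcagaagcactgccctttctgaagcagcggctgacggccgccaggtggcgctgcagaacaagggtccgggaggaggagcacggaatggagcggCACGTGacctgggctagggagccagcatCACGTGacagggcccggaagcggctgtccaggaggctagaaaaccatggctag
CACGTG was present in 30 of the 205 solute carrier windows (14.6%), against 10% of the 12048 windows of genes tested here and 7.15% of all 32851 windows. TGANTCA was present in 5.37% of the solute carrier windows against 5.26% of those of genes tested, the ETS-IRF composite in 3.9% against 2.45%, GAGGAAGT in 2.93% against 3.52%, and the interferon response core in 1.46% against 3.35%. These shares count windows and not genes, and a gene can have several, such as the 8 of Slc29a1. No share by gene is given, so they are descriptions, and a match is not a site.

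Levels spread widely among the genes. Of the 197, 5 had a mean above 100 RPKM over the 9 libraries, 73 lay between 10 and 100 and 119 between 1 and 10, with a median of 7.66 RPKM. The 5 highest were the mitochondrial adenine nucleotide carrier Slc25a5 at 247 RPKM, the mitochondrial phosphate carrier Slc25a3 at 197, the lysosomal carrier Slc46a3 at 184, the choline transporter-like gene Slc44a2 at 134 and the mitochondrial sodium-calcium exchanger Slc8b1 at 126. Together the 197 genes held 0.639% to 0.842% of all RPKM in a library. In 6 genes at least 1 library was at 0, among them Slc16a14, which passed the bound of 1 RPKM through its cDC2 level.

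All 197 genes entered a limma fit over 11971 genes on the scale log2(RPKM + 1), with p-values adjusted over all genes by the Benjamini and Hochberg method and calls made at an adjusted p below 0.05. In cDC1, 24 solute carrier genes were called higher than in cDC2 and 25 lower, or 49 in all. This was 24.9% of them, against 19.6% of all genes tested, of which 8.85% were higher and 10.7% lower. Libraries did not overlap between these subsets in 102 of the 197 genes (51.8%, against 46.1% of all genes). Between mcDC and cDC1, 33 were called (16.8%, against 15.4% of all genes), 21 higher and 12 lower in mcDC (9.53% and 5.88% of all genes). Libraries did not overlap in 63 (32%, against 30.5%). That split depended on scaling: with median-of-ratios scaling, which moved the median difference of all genes from 0.094 to -0.026, 16 were higher and 19 lower. Between mcDC and cDC2, 7 were called (3.55%, against 3.66% of all genes), 6 higher and 1 lower in mcDC (2.06% and 1.6% of all genes), or 3 higher and 2 lower with median-of-ratios scaling. Libraries did not overlap in 48 (24.4%, against 21.6%). The moderated F test over the 3 subsets called 49 genes (24.9%, against 20.3%). The shares called in the pairwise comparisons of mcDC were thus close to the background, and that of cDC1 against cDC2 somewhat above it. The 49, 33 and 7 calls include 4, 4 and 1 genes that passed the bound of 1 RPKM only through their highest subset. No share without these genes is given, so the shares are a description.

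Single libraries moved these counts. The count between cDC1 and cDC2 was 32 without cDC1 replicate 2, 31 without cDC1 replicate 3 and 31 without cDC2 replicate 2. Between mcDC and cDC1 it was 19 without cDC1 replicate 2 and 55 without mcDC replicate 3, and the F test called 29 without cDC1 replicate 2. Between mcDC and cDC2 it was 4 without cDC1 replicate 2 or any 1 of the cDC2 libraries, and 14 without mcDC replicate 1. The calls that held whichever library was left out numbered 30 of 49 between cDC1 and cDC2, 19 of 33 between mcDC and cDC1, and 4 of 7 between mcDC and cDC2. The same 30, 19 and 4 calls held in every other setting in which the gene was tested. A gene is described as higher or lower below only if its call was among these. Other calls that are given below are marked as lost without single libraries, and not every such call is named. In 19 of the 197 genes the mean over the 2 subsets other than the highest was below 1 RPKM, so that they passed the bound only through their highest subset. They held 6 of the 54 genes called in at least 1 comparison (Slc12a5, Slc16a14, Slc25a27, Slc41a2, Slc44a5 and Slc45a3). Membership of these 6 thus hung on their level in the highest subset, so their calls are no independent support. Slc12a5 had means of 1.84 RPKM in mcDC, 1.78 in cDC2 and 0.163 in cDC1, and was thus low in cDC1 alone. It is named below only as a description and among the calls that were lost. The values of the others are given below as a description, with no test. All 6 remain in the counts of calls, also in those by class.

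Among the 49 genes called by the F test, the mcDC mean lay between those of cDC1 and cDC2 in 31 (63.3%, against 65.2% of all 2433 genes so called), above both in 12 (24.5% against 24.8%) and below both in 6 (12.2% against 9.99%). On the log2 scale the mcDC mean was nearer to cDC2 than to cDC1 in 33 of them (67.3%, against 73.5%). The mcDC comparisons share libraries with that of cDC1 and cDC2, so these positions are given as a description.

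**Figure D1:**
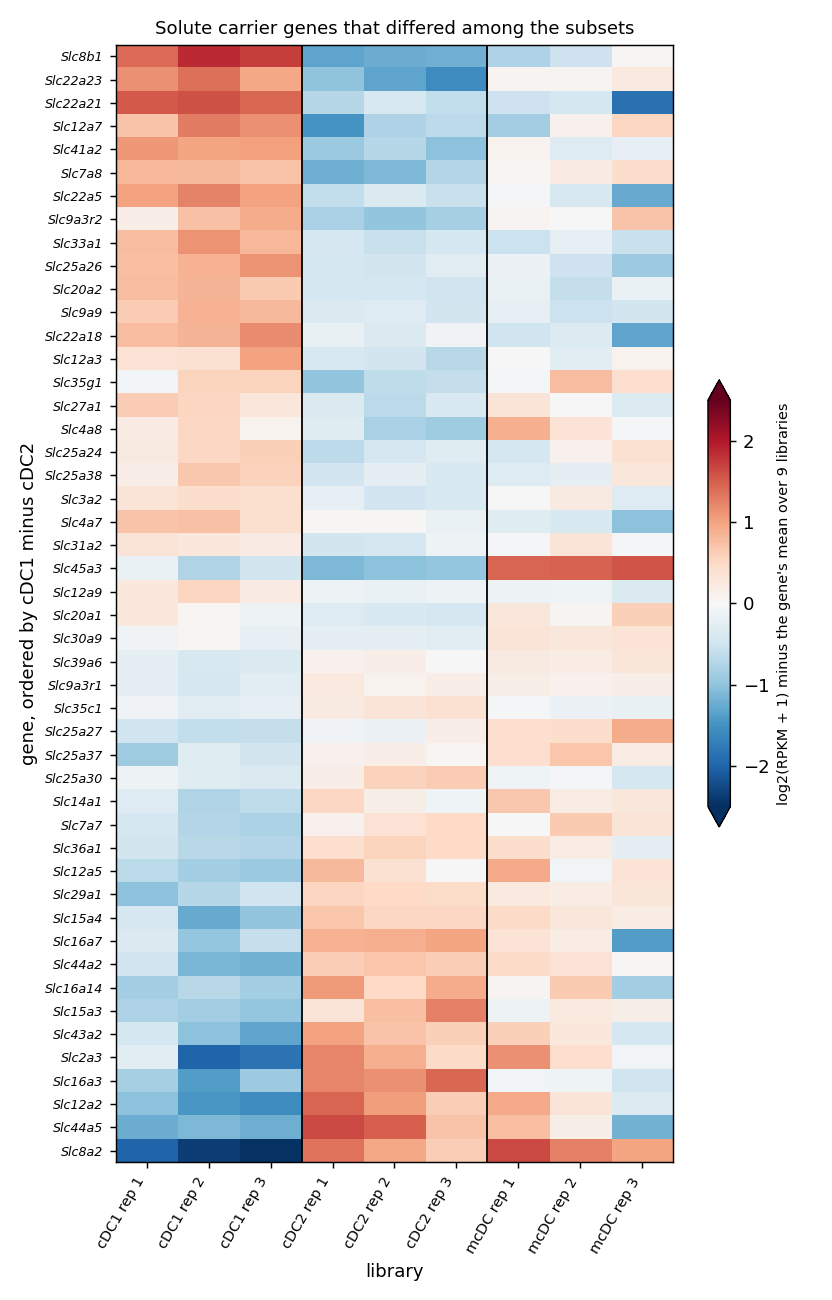
Level of the solute carrier genes called by the F test over the 3 subsets that are reported here, as log2(RPKM + 1) minus the gene's mean over 9 libraries, with 1 row per gene and 1 column per library. Slc8b1 at the top is high in the 3 cDC1 libraries, and Slc8a2 at the bottom is low in them. Slc45a3 is high in the 3 mcDC libraries, but it passed the bound of 1 RPKM only through mcDC, so its row is a description.

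Between cDC1 and cDC2 the ion exchangers held the largest log2 difference in each direction. Slc8b1 (Entrez gene 170756) encodes the exchanger that lets calcium out of the mitochondrial matrix against sodium. It was at 230.4, 315 and 285 RPKM in cDC1 replicates 1 to 3, at 33.9, 35.8 and 36.7 RPKM in cDC2 and at 49.5, 59.6 and 86.8 RPKM in mcDC. The 3 subsets did not overlap, with cDC1 highest and cDC2 lowest. The log2 difference was 2.92 ± 0.20 between cDC1 and cDC2 (SE, limma adjusted p = 1.2e-05) and -2.09 ± 0.20 between mcDC and cDC1 (adjusted p = 0.00017). Between mcDC and cDC2 it was 0.82 ± 0.20 (adjusted p = 0.055), which missed the threshold although the libraries of both subsets did not overlap.

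Slc8a2 (110891), a sodium-calcium exchanger of the plasma membrane known mainly from neurons, had the opposite pattern. It was at 0.521, 0.193 and 0.109 RPKM in cDC1, the lowest of these resting on 5 reads, at 14.7, 11 and 8.4 RPKM in cDC2 and at 18.1, 13.6 and 11.1 RPKM in mcDC. cDC1 lay below every other library, and cDC2 and mcDC overlapped. The log2 difference was -3.26 ± 0.25 between cDC1 and cDC2 (adjusted p = 2.4e-05) and 3.57 ± 0.25 between mcDC and cDC1 (adjusted p = 3.4e-05). Slc8a1, the family's main heart isoform, was at 3.67, 3.3 and 2.82 RPKM in cDC1, at 4.68, 5.16 and 3.87 in cDC2 and at 4.74, 3.92 and 1.99 in mcDC and was not called.

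Of the sodium-proton exchangers, which set the pH of the cytosol and of endosomes, only 1 of the 7 measured was called. Slc9a9 (331004), an exchanger of recycling endosomes, was at 35.3, 41.3 and 39.7 RPKM in cDC1, at 17.2, 17.7 and 16 RPKM in cDC2 and at 19.2, 15.1 and 15.8 RPKM in mcDC. It was higher in cDC1 than in cDC2 by 1.14 ± 0.13 (adjusted p = 0.0002) and lower in mcDC than in cDC1 by the log2 difference -1.17 ± 0.13 (adjusted p = 0.00034). Its promoter window above holds the AP-1 letters.

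**Figure D2:**
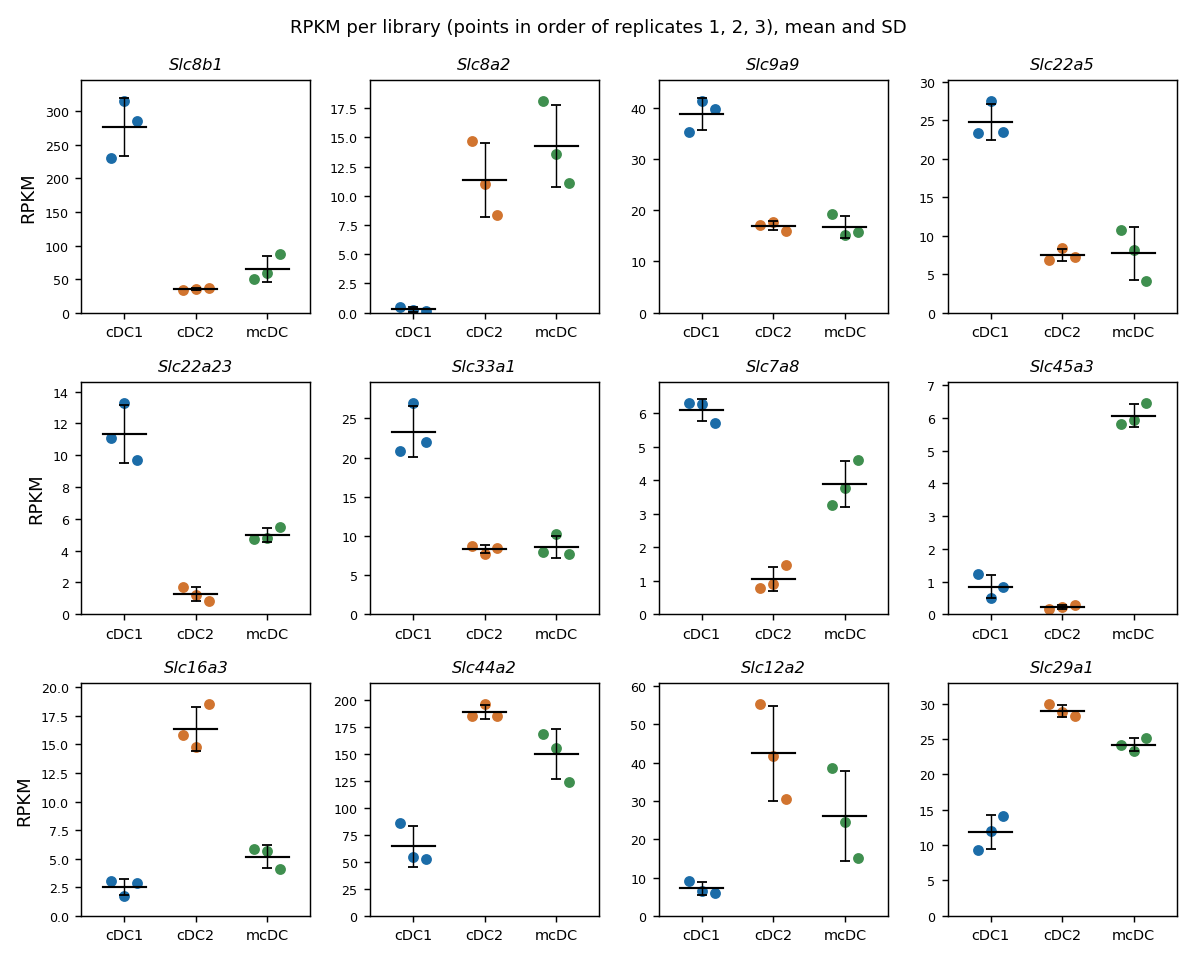
RPKM of 12 solute carrier genes in each library (points, in the order of replicates 1, 2 and 3), with the mean (bar) and SD (error bar) of the 3 libraries of each subset. Slc8b1, Slc9a9, Slc22a5, Slc22a23, Slc33a1 and Slc7a8 are highest in cDC1 and Slc16a3 in cDC2, while Slc8a2, Slc44a2, Slc12a2 and Slc29a1 are low in cDC1. Slc45a3 is highest in mcDC, through which alone it passed the bound of 1 RPKM.

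Of 11 carriers of organic cations and anions, 4 were called higher and 0 lower in cDC1 than in cDC2 (8.85% and 10.7% of all genes), including Slc22a18, whose call was lost without single libraries, and a pair that may share reads. Summed over the class, the level was 77.7 ± 3.41 RPKM in cDC1, 34.6 ± 0.388 in cDC2 and 41.7 ± 6.47 in mcDC (mean ± SD, n = 3). Slc22a5 (20520), the high-affinity carnitine transporter that supplies mitochondrial fatty acid oxidation, was at 23.3, 27.5 and 23.5 RPKM in cDC1, at 6.9, 8.44 and 7.22 RPKM in cDC2 and at 10.8, 8.21 and 4.07 RPKM in mcDC. It was higher in cDC1 than in cDC2 (log2 difference 1.60 ± 0.27, adjusted p = 0.0024) and lower in mcDC than in cDC1 (-1.65 ± 0.27, adjusted p = 0.0031). Slc22a21 (56517), a carnitine transporter known from the mouse, was at 12.2 to 13.7 RPKM in cDC1, 1.99 to 2.68 in cDC2 and 0.338 to 2.58 in mcDC, with log2 differences of 2.09 ± 0.34 (adjusted p = 0.0019) and -2.46 ± 0.34 (adjusted p = 0.0013) in the same comparisons. The genes of Slc22a5 and Slc22a21 neighbour each other and are similar in sequence, and how reads shared by both were counted was not given, so their separate levels are uncertain.

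Slc22a23 (73102), a family member whose substrate is not established, separated all 3 subsets. It was at 11.1, 13.3 and 9.68 RPKM in cDC1, at 4.72, 4.77 and 5.5 RPKM in mcDC and at 1.74, 1.21 and 0.848 RPKM in cDC2, with no overlap. The log2 difference was 2.45 ± 0.19 between cDC1 and cDC2 (adjusted p = 2.9e-05), -1.03 ± 0.19 between mcDC and cDC1 (adjusted p = 0.0064) and 1.42 ± 0.19 between mcDC and cDC2 (adjusted p = 0.0053). Slc22a18 was lower in mcDC (0.97, 1.21 and 0.119 RPKM) than in cDC1 (3.79, 4.01 and 5.32 RPKM), by the log2 difference -1.65 ± 0.27 (adjusted p = 0.0032). Its call against cDC2 (log2 difference 1.14 ± 0.27, adjusted p = 0.015) was lost without cDC1 replicate 3 (adjusted p = 0.07) or cDC2 replicate 2 (0.068), and over all settings its adjusted p reached 0.12.

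The cation-chloride cotransporters, which set cell volume and chloride, moved in opposite directions. Slc12a2 (20496), which brings sodium, potassium and chloride into the cell, was at 9.09, 6.45 and 5.92 RPKM in cDC1, at 55.2, 41.6 and 30.5 RPKM in cDC2 and at 38.5, 24.6 and 15.2 RPKM in mcDC. cDC1 lay below all other libraries, by -2.39 ± 0.32 against cDC2 (adjusted p = 0.00063), and mcDC was above cDC1 by 1.66 ± 0.32 (adjusted p = 0.0076).

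Slc12a7, a potassium-chloride exporter, went the other way, but the exporters did not move as a group. Slc12a4 had means of 5.54 RPKM in cDC1 and 6.2 in cDC2 and was not called, and Slc12a5, given above, was low in cDC1. Slc12a7 (20499) was at 10.2, 15.4 and 14 RPKM in cDC1 and at 1.46, 3.01 and 3.31 RPKM in cDC2, a log2 difference of 2.0 ± 0.36 (adjusted p = 0.0033), with mcDC spread from 2.72 to 8.67 RPKM. Slc12a3, the sodium-chloride cotransporter known from the kidney, was at 3.16, 3.19 and 5.45 RPKM in cDC1 and 1.45, 1.36 and 1.0 RPKM in cDC2, higher in cDC1 by 1.09 ± 0.22 (adjusted p = 0.0072). Of the bicarbonate carriers, which help to set cytosolic pH, Slc4a7 was lower in mcDC (9.5, 8.92 and 5.34 RPKM) than in cDC1 (20.3, 20.4 and 16.1 RPKM), by -1.19 ± 0.20 (adjusted p = 0.0039). In all, 8 of 15 chloride and bicarbonate carriers were called in cDC1 against cDC2, 5 being higher and 3 lower in cDC1 (8.85% and 10.7% of all genes), and 4 of these 8 calls (Slc12a5, Slc12a9, Slc4a7 and Slc4a8) were lost without at least 1 cDC1 or cDC2 library, with adjusted p up to 0.17.

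**Figure D3:**
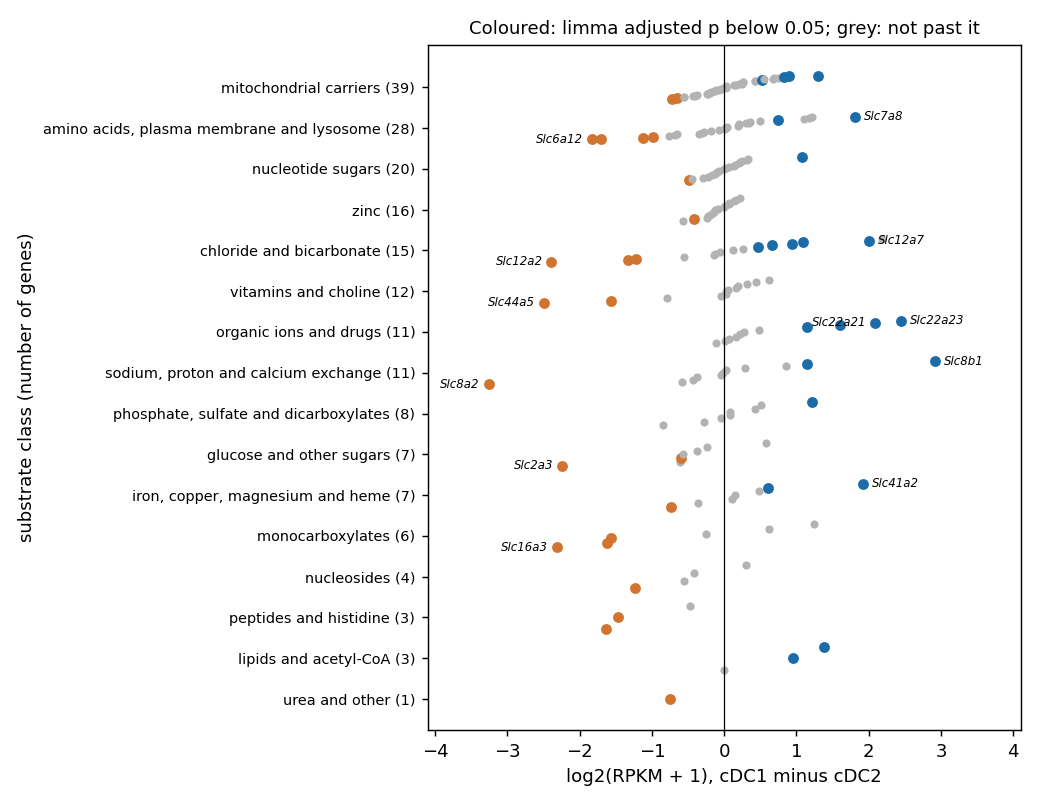
Log2(RPKM + 1) difference between cDC1 and cDC2 for every solute carrier gene, by substrate class, with genes past the limma threshold in blue (higher in cDC1) or orange (lower in cDC1) and the others in grey. Organic ion carriers that were called lie to the right, peptide, monocarboxylate and choline carriers that were called lie to the left, and most mitochondrial, zinc and nucleotide sugar carriers lie near 0.

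Amino acid carriers of the plasma membrane and lysosome numbered 28, of which 2 were called higher and 4 lower in cDC1 than in cDC2 (8.85% and 10.7% of all genes). Slc7a8 (50934), which exchanges neutral amino acids across the plasma membrane as a dimer with Slc3a2, was at 6.32, 6.27 and 5.73 RPKM in cDC1, at 3.28, 3.78 and 4.62 RPKM in mcDC and at 0.781, 0.903 and 1.47 RPKM in cDC2. The subsets did not overlap. It was higher than in cDC2 both in cDC1 (1.81 ± 0.19, adjusted p = 0.00015) and in mcDC (1.26 ± 0.19, adjusted p = 0.0076). Slc3a2 itself (17254), the heavy chain that carries several such exchangers to the surface, was at 41.6, 45.5 and 44.2 RPKM in cDC1 and 28.8, 23.5 and 25.1 RPKM in cDC2, higher in cDC1 by 0.74 ± 0.15 (adjusted p = 0.0067).

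Another light chain and carriers of efflux were lower in cDC1. Slc7a7 (20540), which exports cationic amino acids with the same heavy chain, was at 5.28, 4.12 and 3.87 RPKM in cDC1, at 8.17, 9.95 and 11 RPKM in cDC2 and at 7.39, 12.4 and 9.6 RPKM in mcDC. It was lower in cDC1 than in cDC2 by -0.98 ± 0.20 (adjusted p = 0.0076). Slc43a2 (215113), a facilitated carrier of large neutral amino acids, was at 12.3, 7.8 and 6.23 RPKM in cDC1 and at 35.2, 28.5 and 26.1 RPKM in cDC2, lower by -1.70 ± 0.29 (adjusted p = 0.0026). Slc36a1 (215335), which moves small amino acids with protons out of the lysosome and whose window above holds the E-box letters at 2 places, was at 5.16, 4.27 and 4.13 RPKM in cDC1 and at 10.4, 11.6 and 11.1 RPKM in cDC2, lower by -1.13 ± 0.19 (adjusted p = 0.0023). These 3 genes were also called between mcDC and cDC1 (log2 differences 0.97, 1.07 and 0.76, adjusted p = 0.011, 0.035 and 0.023), but without cDC1 replicate 2 the adjusted p was 0.052 for Slc7a7, 0.12 for Slc43a2 and 0.09 for Slc36a1. Slc36a1 was also lost without cDC1 replicate 3, mcDC replicate 1 or mcDC replicate 2, and Slc43a2 without each library but cDC1 replicate 1, cDC2 replicate 1 and mcDC replicate 3.

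Slc1a5 and Slc38a2, the most abundant amino acid carriers, did not pass the threshold. Slc1a5, a glutamine exchanger, was at 85.8, 96.9 and 88.1 RPKM in cDC1, at 71.3, 74 and 68.5 in cDC2 and at 72, 88.8 and 85.8 in mcDC. Its log2 difference between cDC1 and cDC2 was 0.34 ± 0.11 (adjusted p = 0.069). Slc38a2, a glutamine and alanine importer, was at 86, 52.5 and 47.9 RPKM in cDC1, at 116, 100.2 and 92.8 in cDC2 and at 140.5, 103 and 74.7 in mcDC (cDC1 minus cDC2 -0.76 ± 0.26, adjusted p = 0.073). Slc7a5, the light chain that carries leucine, was at 9.87, 14.6 and 12.9 RPKM in cDC1, at 8.14, 12.4 and 12.1 in cDC2 and at 11.4, 21.5 and 12.7 in mcDC (cDC1 minus cDC2 0.19 ± 0.26, adjusted p = 0.71). Slc6a12, a betaine and GABA carrier, was at 15.9, 9.97 and 6.29 RPKM in cDC2 and 1.75 to 2.38 in cDC1. Its call (-1.83 ± 0.50, adjusted p = 0.03) was lost without any 1 of the cDC1 libraries, cDC2 replicate 1 or cDC2 replicate 2 (adjusted p 0.066 to 0.12).

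Genes that sense lysosomal amino acids and control the kinase complex mTORC1 were measured beside the carriers, as a list of 25 genes tested. Of these 2 were called higher and 3 lower in cDC1 than in cDC2 (8.85% and 10.7% of all genes), and the call of Sesn1 was lost without cDC1 replicate 2 (adjusted p = 0.053), with a median log2 difference of -0.09 against -0.02 for all genes. Fnip2, a partner of folliculin, was at 28.3, 38.5 and 33.2 RPKM in cDC1, at 2.48, 2.86 and 3.04 in cDC2 and at 3.06, 4.81 and 4.52 in mcDC (cDC1 minus cDC2 3.17 ± 0.18, adjusted p = 5.2e-06). Tfeb, the factor that switches on lysosomal genes through E-boxes, was at 19.3, 15.7 and 14.7 RPKM in cDC1, at 54.5, 50.8 and 46 in cDC2 and at 48.9, 39.3 and 38 in mcDC. It was lower in cDC1 than in cDC2 by -1.56 ± 0.14 (adjusted p = 7.2e-05) and higher in mcDC than in cDC1 by 1.29 ± 0.14 (adjusted p = 0.00038). Sesn2, a leucine sensor, was at 9.39 to 10.5 RPKM in cDC1 and 21.4 to 27.4 in cDC2 (-1.22 ± 0.18, adjusted p = 0.001). Slc38a9, the lysosomal arginine sensor among the carriers, was at 7.08 to 7.46 RPKM in cDC1 and 8.94 to 9.43 in cDC2 (-0.31, adjusted p = 0.46).

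Slc15a4 and Slc15a3, the peptide and histidine carriers of the endolysosome, were lower in cDC1. Slc15a4 (100561) was at 29.5, 16.2 and 19.6 RPKM in cDC1, at 65.1, 57.9 and 57.6 RPKM in cDC2 and at 56.2, 48.8 and 45.9 RPKM in mcDC. cDC1 lay below all other libraries, by -1.47 ± 0.19 against cDC2 (adjusted p = 0.00056), and mcDC was above cDC1 by 1.21 ± 0.19 (adjusted p = 0.0027). Slc15a3 (65221) was at 6.81, 6.27 and 5.76 RPKM in cDC1, at 15.7, 21.2 and 30.6 RPKM in cDC2 and at 11.2, 14.8 and 13.7 RPKM in mcDC, lower in cDC1 than in cDC2 by -1.64 ± 0.22 (adjusted p = 0.00061). Its call between mcDC and cDC1 (0.96 ± 0.22, adjusted p = 0.017) was lost without cDC1 replicate 2 (adjusted p = 0.063), cDC1 replicate 3 (0.067) or mcDC replicate 2 (0.055). Within cDC2 Slc15a3 was lowest in replicate 1 and highest in replicate 3, as was the neutrophil marker sum given above, and the part of those cells in its level was not tested.

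The genes that act with Slc15a4 in endosomal and peptidoglycan signalling were measured too. Of 11 tested, 7 were called lower and 0 higher in cDC1 than in cDC2 (10.7% and 8.85% of all genes), and 5 were called higher in mcDC than in cDC1 (9.53% of all genes). The call of Myd88, an adaptor of these receptors, was lost without cDC1 replicate 1 or 2 or cDC2 replicate 2 or 3 (adjusted p 0.071 to 0.084), and the other 6 lower calls held without any 1 library. Tlr7, the receptor for single-stranded RNA, was at 4.15, 1.65 and 1.08 RPKM in cDC1, at 35.5, 36.2 and 33.9 in cDC2 and at 23, 18.3 and 8.73 in mcDC (cDC1 minus cDC2 -3.57 ± 0.38, adjusted p = 0.00015). Nod1, a sensor of bacterial peptidoglycan fragments that these carriers let into the cytosol, was at 14.9 to 20.6 RPKM in cDC1, 56.7 to 66.7 in cDC2 and 37.1 to 68.1 in mcDC (-1.80 ± 0.21, adjusted p = 0.00026). Ripk2, the kinase below Nod1 and Nod2, was at 3.73 to 3.85, 12.9 to 14.4 and 9.45 to 12.9 RPKM in the same order (-1.60 ± 0.14, adjusted p = 6.3e-05). The factor at the end of the pathway did not follow them: Irf5 was at 147 to 178 RPKM in cDC1, 137 to 148 in cDC2 and 134 to 155 in mcDC and was not called. Unc93b1, which brings the receptors to the endosome, was at 325 to 417 RPKM over all 9 libraries and was not called.

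**Figure D4:**
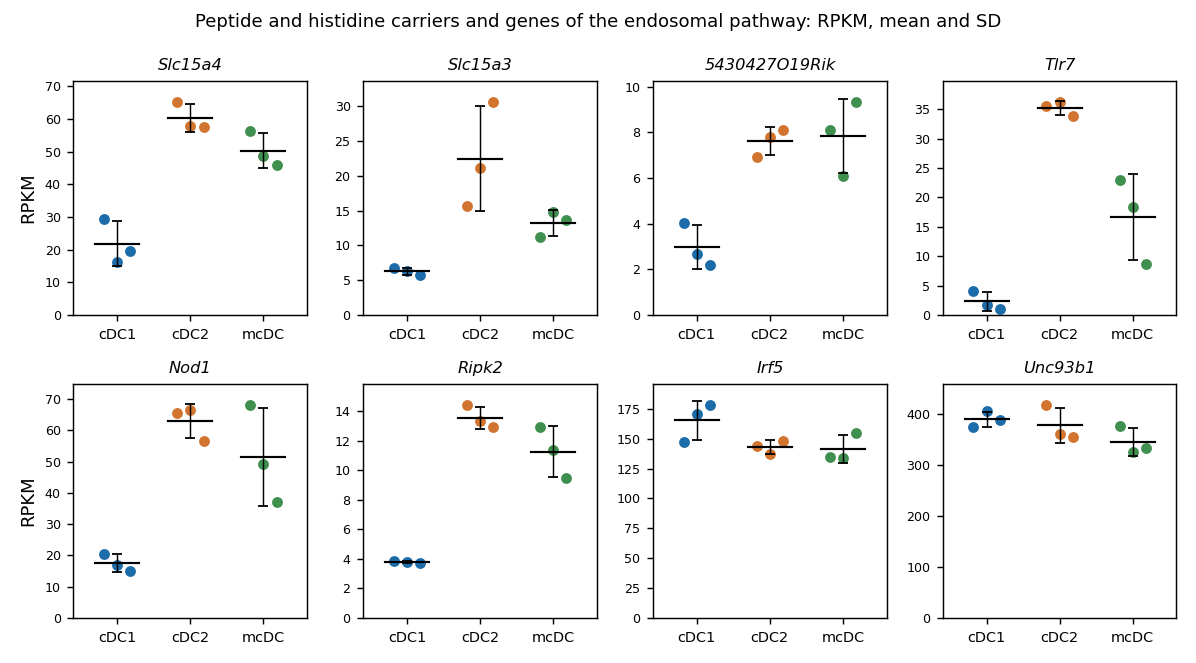
RPKM of both endolysosomal peptide and histidine carriers and of 6 genes of the signalling list in each library (points, in the order of replicates 1, 2 and 3), with mean and SD per subset. Slc15a4, Slc15a3, Tlr7, Nod1 and Ripk2 are lowest in cDC1, as is 5430427O19Rik at 2.21 to 4.05 RPKM, whereas Irf5 and Unc93b1 overlap between subsets.

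Of 7 sugar carriers, 0 were called higher and 2 lower in cDC1 than in cDC2 (8.85% and 10.7% of all genes), and the call of Slc2a6 was lost without cDC1 replicate 2 or 3 or any 1 of the cDC2 libraries (adjusted p 0.072 to 0.11). Slc45a3 (212980), a sugar-proton carrier known from the prostate, passed the bound only through mcDC. It was at 5.82, 5.93 and 6.46 RPKM in mcDC, at 1.22, 0.494 and 0.828 RPKM in cDC1 and at 0.156, 0.224 and 0.277 RPKM in cDC2, the lowest of these resting on 5 reads. mcDC lay above every other library. The red pulp macrophage marker sum was 333, 395 and 592 RPKM in the same mcDC libraries, and the part of those cells in its level was not tested. Slc2a3 (20527), a high-affinity glucose carrier, was at 16, 4.08 and 4.64 RPKM in cDC1, at 46.5, 36.9 and 27.3 RPKM in cDC2 and at 43.8, 26 and 18.4 RPKM in mcDC. It was lower in cDC1 than in cDC2 by -2.24 ± 0.46 (adjusted p = 0.0074), and the highest cDC1 value was in replicate 1, where the cDC2 marker sum was also highest. Its call between mcDC and cDC1 (1.87 ± 0.46, adjusted p = 0.024) was lost without cDC1 replicate 2, cDC1 replicate 3, mcDC replicate 1 or mcDC replicate 2 (adjusted p 0.057 to 0.1). Slc2a1, the widespread glucose carrier, was at 5.3 to 7.9 RPKM in cDC1, 8.66 to 11.5 in cDC2 and 8.64 to 15.5 in mcDC, with adjusted p = 0.093 between cDC1 and cDC2 and 0.053 between mcDC and cDC1.

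Monocarboxylate carriers exchange lactate and pyruvate with protons. Slc16a3 (80879), the isoform known for lactate export from glycolytic cells, was at 15.8, 14.8 and 18.5 RPKM in cDC2, at 5.84, 5.65 and 4.07 RPKM in mcDC and at 3.03, 1.72 and 2.84 RPKM in cDC1. The subsets did not overlap. cDC1 was below cDC2 by -2.31 ± 0.20 (adjusted p = 5.3e-05), and mcDC was below cDC2 by -1.50 ± 0.20 (adjusted p = 0.0051), the only solute carrier gene called lower in mcDC than in cDC2. Its call between mcDC and cDC1 (0.82 ± 0.20, adjusted p = 0.024) was lost without cDC1 replicate 2, cDC1 replicate 3, mcDC replicate 1 or mcDC replicate 2 (adjusted p 0.052 to 0.094). The neutrophil marker sum was 192, 966 and 1616 RPKM in the cDC2 libraries, and the part of those cells in the Slc16a3 level was not tested. Slc16a14, an orphan of the family, was at 2.73, 1.55 and 2.39 RPKM in cDC2 and at 0, 0.116 and 0 RPKM in cDC1, and passed the bound only through cDC2.

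Slc16a1, the widespread lactate carrier, was at 1.91, 4.38 and 4.7 RPKM in cDC1, at 0.589, 1.02 and 1.12 in cDC2 and at 0.849, 3.41 and 3.95 in mcDC, and was not called (cDC1 minus cDC2 1.24 ± 0.40, adjusted p = 0.057). Of the chaperones that take these carriers to the surface, Emb was at 68.2, 68.4 and 83.9 RPKM in cDC2, 37.4, 33.6 and 39.3 in mcDC and 19.5, 7.26 and 11.5 in cDC1 (cDC1 minus cDC2 -2.53 ± 0.27, adjusted p = 0.00018, and mcDC minus cDC1 1.55 ± 0.27, adjusted p = 0.0046). Bsg, the partner of Slc16a1 and Slc16a3, was at 59.1 to 110 RPKM over all libraries and was not called.

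Of 4 nucleoside carriers 1, and of 12 vitamin and choline carriers 2, were called lower in cDC1 than in cDC2, and 0 of either class higher (10.7% and 8.85% of all genes). Slc29a1 (63959), the equilibrative nucleoside carrier of the plasma membrane, was at 9.36, 12 and 14.1 RPKM in cDC1, at 29.9, 28.8 and 28.2 RPKM in cDC2 and at 24.2, 23.3 and 25.1 RPKM in mcDC. It was lower in cDC1 than in cDC2 by -1.24 ± 0.14 (adjusted p = 0.00027), and higher in mcDC than in cDC1 by 0.99 ± 0.14 (adjusted p = 0.0017). The window printed above, picked from its 8 as that with the most matches, holds the ETS-IRF letters. Its lysosomal relative Slc29a3 was at 13.3 to 20 RPKM in cDC1, 19.2 to 23.3 in cDC2 and 8.97 to 19.3 in mcDC and was not called.

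Slc44a2 (68682), a choline transporter-like protein, was at 86.3, 54.4 and 52.6 RPKM in cDC1, at 185, 196 and 185 RPKM in cDC2 and at 169, 156 and 124 RPKM in mcDC. It was lower in cDC1 than in cDC2 by -1.57 ± 0.19 (adjusted p = 0.00038), and higher in mcDC than in cDC1 by 1.22 ± 0.19 (adjusted p = 0.0026). Slc44a5 (242259), of the same family, was at 6.5, 5.7 and 2.9 RPKM in cDC2, at 0, 0.0886 and 0.0252 RPKM in cDC1 and spread over 3.02, 1.62 and 0.0474 RPKM in mcDC, and passed the bound only through cDC2. Slc46a3, a lysosomal carrier of small molecules, was at 152, 125 and 107 RPKM in cDC1, at 258, 220 and 185 in cDC2 and at 266, 211 and 132 in mcDC. Its libraries did not overlap between cDC1 and cDC2, but the difference of -0.79 ± 0.25 had an adjusted p of 0.055.

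Of 3 lipid and acetyl-CoA carriers 2, and of 8 phosphate, sulfate and dicarboxylate carriers 1, were called higher in cDC1 than in cDC2, and 0 of either class lower (8.85% and 10.7% of all genes). Slc33a1 (11416), which brings acetyl-CoA into the endoplasmic reticulum, was at 20.9, 27 and 22 RPKM in cDC1, at 8.7, 7.71 and 8.49 RPKM in cDC2 and at 7.93, 10.2 and 7.72 RPKM in mcDC. It was higher in cDC1 than in cDC2 by 1.38 ± 0.15 (adjusted p = 0.0002) and lower in mcDC than in cDC1 by -1.34 ± 0.15 (adjusted p = 0.00044). Slc20a2 (20516), a sodium-phosphate importer, was at 17.2, 18.3 and 15.7 RPKM in cDC1, at 6.89, 6.85 and 6.57 RPKM in cDC2 and at 8.56, 6.09 and 8.49 RPKM in mcDC (cDC1 minus cDC2 1.21 ± 0.15, adjusted p = 0.00044, and mcDC minus cDC1 -1.06 ± 0.15, adjusted p = 0.0016). Slc27a1, a fatty acid transport protein, was at 9.88, 9.09 and 7.45 RPKM in cDC1 and 4.47, 3.35 and 4.37 in cDC2, higher in cDC1 by 0.95 ± 0.20 (adjusted p = 0.0092).

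The other phosphate importer, Slc20a1, was at 29.9, 25.7 and 37.1 RPKM in mcDC, 29.3, 25.3 and 22.1 in cDC1 and 19.4, 18.5 and 17.9 in cDC2. Its call between mcDC and cDC2 (0.69 ± 0.15, adjusted p = 0.043) was lost without any 1 of the cDC2 libraries, cDC1 replicate 2, cDC1 replicate 3 or mcDC replicate 3 (adjusted p 0.056 to 0.17).

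Of 7 iron, copper, magnesium and heme carriers 2 were called higher and 1 lower in cDC1 than in cDC2 (8.85% and 10.7% of all genes), of which Slc31a2 and Slc41a3 were lost without any 1 of the cDC1 libraries, cDC2 replicate 1 or cDC2 replicate 2 (adjusted p 0.05 to 0.15), and Slc41a3 also without cDC2 replicate 3 or mcDC replicate 2. Slc41a2 (338365), a magnesium carrier, was at 4.35, 3.99 and 4.14 RPKM in cDC1, at 0.322, 0.534 and 0.238 RPKM in cDC2 and at 1.69, 1.02 and 1.2 RPKM in mcDC, with no overlap, and passed the bound only through cDC1. Of 16 zinc carriers 0 were called higher and 1 (Slc39a6) lower in cDC1 than in cDC2 (8.85% and 10.7% of all genes), and that call was lost without any 1 of the cDC1 replicates 2 and 3 or the cDC2 libraries (adjusted p 0.076 to 0.16). The summed zinc carrier level was 186 ± 0.965 RPKM in cDC1, 199 ± 4.15 in cDC2 and 208 ± 7.7 in mcDC. Slc39a7, which releases zinc from the endoplasmic reticulum, was the highest of them, at 35.2 to 55.2 RPKM over all libraries.

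Slc48a1, which carries heme out of the lysosome, was at 26.7, 29 and 41.5 RPKM in mcDC and 17.1, 20.6 and 20.4 in cDC1. Its call (0.69 ± 0.18, adjusted p = 0.03) was lost without any 1 of the cDC1 libraries (adjusted p 0.077 to 0.096). It was highest in mcDC replicate 3, as was the red pulp macrophage marker sum, and the part of those cells was not tested. Slc11a2, the iron importer of endosomes, was at 7.09 to 7.67 RPKM in cDC1, 4.91 to 4.97 in cDC2 and 4.78 to 7.95 in mcDC and was not called (cDC1 minus cDC2 0.48 ± 0.18, adjusted p = 0.1). Tfrc, the transferrin receptor that feeds it, was at 19.1 to 23.9 RPKM in cDC1, 31.4 to 44.3 in cDC2 and 39.7 to 44.6 in mcDC (cDC1 minus cDC2 -0.78 ± 0.15, adjusted p = 0.0042).

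The mitochondrial carriers were the largest class, with 39 genes, of which 4 were called higher and 2 lower in cDC1 than in cDC2 (8.85% and 10.7% of all genes), with a median difference of 0.02. All of these calls but that of Slc25a26 were lost without at least 1 cDC1 or cDC2 library: those of Slc25a24, Slc25a38, Slc25a4 and Slc25a30 without cDC1 replicate 2 or 3 among others (adjusted p up to 0.093), and that of Slc25a37 as given below. Their summed level was 1049 ± 54.2 RPKM in cDC1, 979 ± 47.4 in cDC2 and 1038 ± 121 in mcDC. Slc25a5 was at 223, 245 and 261 RPKM in cDC1, at 225, 249 and 278 in cDC2 and at 188, 264 and 289 in mcDC (cDC1 minus cDC2 -0.04 ± 0.17, adjusted p = 0.92). Slc25a5 has near-identical pseudogene copies elsewhere in the genome, so its level is uncertain. Slc25a26 (67582), which brings S-adenosylmethionine, the methyl donor, into mitochondria, was at 6.62, 7.23 and 8.87 RPKM in cDC1, at 2.32, 2.31 and 2.76 RPKM in cDC2 and at 3.1, 2.15 and 1.42 RPKM in mcDC. It was higher in cDC1 than in cDC2 by 1.30 ± 0.22 (adjusted p = 0.0024) and lower in mcDC than in cDC1 by -1.44 ± 0.22 (adjusted p = 0.0022).

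Slc25a37 (67712), which imports iron for heme synthesis, was at 11.7, 17.9 and 16 RPKM in cDC1, at 24.4, 25.3 and 23.2 RPKM in cDC2 and at 30.5, 37.1 and 25.8 RPKM in mcDC. It was higher in mcDC than in cDC1 by 0.99 ± 0.18 (adjusted p = 0.0048). Its call between cDC1 and cDC2 (-0.66 ± 0.18, adjusted p = 0.026) was lost without cDC1 replicate 1, cDC1 replicate 3 or any 1 of the cDC2 libraries (adjusted p 0.061 to 0.097). Slc25a27, an uncoupling protein relative, was at 1.94, 2.01 and 3.18 RPKM in mcDC and 0.574, 0.439 and 0.461 in cDC1, and passed the bound only through mcDC. Nucleotide sugar carriers, which supply glycosylation in the Golgi, summed to 275 ± 7.84 RPKM in cDC1, 269.8 ± 5.34 in cDC2 and 285 ± 10.1 in mcDC, with 1 of 20 called in each direction between cDC1 and cDC2 (8.85% and 10.7% of all genes), both lost without at least 1 of these libraries (adjusted p up to 0.096).

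The 6 genes with a solute carrier name that are not carriers were described apart. Slc9a3r2, a scaffold that ties exchangers to the cytoskeleton, was at 2.49, 4.14 and 4.89 RPKM in cDC1 and 0.771, 0.576 and 0.748 in cDC2, higher in cDC1 by 1.48 ± 0.26 (adjusted p = 0.0032). Its sister scaffold Slc9a3r1 went the other way, at 51.8, 45.4 and 50 RPKM in cDC1 and 72.2, 64.9 and 68.8 in cDC2 (-0.48 ± 0.10, adjusted p = 0.0077). None of the other 4, which include Slc7a6os and Slc4a1ap, was called in any of the 3 comparisons by limma.

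Of 26 carriers and channels without a solute carrier symbol, 5 were called higher and 3 lower in cDC1 than in cDC2 (8.85% and 10.7% of all genes). Tpcn1, Tpcn2, Mcoln1 and Mcoln2 of this list are channels, and Tpcn2 is among those called higher. The call of Ctns, the lysosomal cystine exporter, was lost without cDC1 replicate 2 (adjusted p = 0.056) or cDC2 replicate 3 (0.064). Slco3a1, a carrier of prostaglandins and other organic anions, was at 28.6, 34.4 and 36.3 RPKM in cDC1, at 2.6, 3.6 and 4.8 in cDC2 and at 4.52, 7.75 and 8.1 in mcDC (cDC1 minus cDC2 2.89 ± 0.24, adjusted p = 3.7e-05). Spns3, a relative of the sphingolipid exporters, was at 55.9, 45.3 and 32.5 RPKM in cDC2 and 11.1, 5.44 and 4.59 in cDC1 (-2.55 ± 0.40, adjusted p = 0.0015). Slco2b1, an organic anion carrier, was at 2.56, 3.31 and 5.26 RPKM in mcDC and at most 0.655 RPKM in the other libraries (mcDC minus cDC2 1.96 ± 0.25, adjusted p = 0.0046). Like the red pulp macrophage marker sum it was highest in mcDC replicate 3, and the part of those cells was not tested.

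Transcription factors known to act on nutrient carriers were given for 10 genes tested, of which 0 were called higher and 4 lower in cDC1 than in cDC2 (8.85% and 10.7% of all genes). The calls of Myc and Srebf1 were lost without any 1 of the cDC1 libraries, cDC2 replicate 2 or cDC2 replicate 3, and that of Srebf1 also without cDC2 replicate 1 and that of Myc without mcDC replicate 2 (adjusted p 0.053 to 0.17). Nr1h3, a receptor for oxysterols, was at 0.56, 1.76 and 1.57 RPKM in cDC1, at 5.42, 8.15 and 8.05 in cDC2 and at 10.4, 10.3 and 19.5 in mcDC (mcDC minus cDC1 2.64 ± 0.30, adjusted p = 0.00046). Nfe2l2, a factor of the oxidative stress response, was at 13 to 15.5 RPKM in cDC1 and 27.4 to 38.2 in cDC2 (-1.13 ± 0.17, adjusted p = 0.0012). Myc was at 17.9, 20.4 and 18.6 RPKM in mcDC and 9.06, 9.56 and 10.1 in cDC1 (0.92 ± 0.13, adjusted p = 0.0018). Hif1a, which responds to low oxygen and acts on Slc2a1 and Slc16a3, was at 9.77 to 18.1 RPKM over all libraries and was not called.

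Some carriers were lowest in replicate 1, in a share near that of all genes. In all, 24 of the 197 genes (12.2%) were lowest in replicate 1 of every subset, against 12% of all genes tested. In 5 of them the mean of replicates 2 and 3 was at least 3 times the level in replicate 1 in both cDC1 and mcDC, a bound chosen after the values were seen: Slc4a1, Slc38a5, Slc43a1, Slc6a9 and Slc52a3. The share of all genes past this bound is not given, so these 5 are described and not read as a trait of carriers. Slc4a1, the anion exchanger of red cells, was at 0.379, 39.6 and 28.5 RPKM in cDC1, at 0.0956, 4.19 and 2.03 RPKM in cDC2 and at 0.187, 31.8 and 10.5 RPKM in mcDC. The SD of log2(RPKM + 1) was 2.69 within cDC1, 1.14 within cDC2 and 2.45 within mcDC, and it was not called (cDC1 minus cDC2 2.19 ± 1.44, adjusted p = 0.37). Slc38a5, a glutamine carrier, was at 0, 3.94 and 4.64 RPKM in cDC1 and 0.195, 1.54 and 2.71 in mcDC. Slc6a9, a glycine carrier that erythroid cells need for heme, was at 0.361, 2.66 and 2.74 RPKM in cDC1 and 0.519, 2.2 and 3.44 in mcDC.

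Erythroid markers were also lowest in replicate 1 of every subset. Of 8 listed, 5 were in the table, and their sum in replicates 1, 2 and 3 stood at 2.15, 58.9 and 49.5 RPKM in cDC1, at 1.06, 9.09 and 6.47 in cDC2 and at 1.5, 45.2 and 24.2 in mcDC. Klf1, an erythroid transcription factor, was at 0 in replicate 1 of cDC2 and mcDC. Slc52a3, a riboflavin carrier, was at 0.295, 0.853 and 1.38 RPKM in cDC1 and 0.439, 2.53 and 2.32 in mcDC. The part of red cell precursors in the levels of these carriers was not tested.

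**Figure D5:**
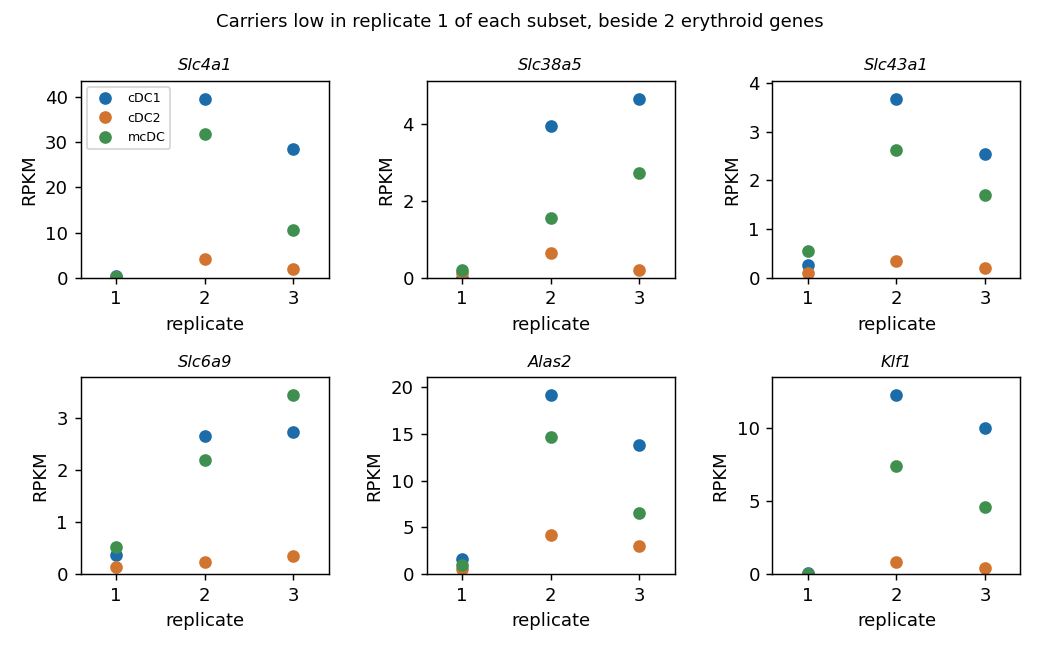
RPKM of 4 solute carrier genes and of the erythroid genes Alas2 and Klf1 by replicate number, with 1 point per library coloured by subset. All 6 are low in replicate 1 of each subset, and Slc4a1, at 0.0956 to 0.379 RPKM there, is lower in cDC2 than in cDC1 and mcDC in replicates 2 and 3.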

How the data were processed

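The table holds RPKM values per gene, deposited by the authors for 9 RNA-seq libraries. No header names the unit: it was read from the values, whose steps gave whole reads for 100% of nonzero values within 0.0001. RNA was made into strand-marking libraries, per the labels' protocols, and the build is mm8, per the submitters' processing notes. The sources used here name no aligner, counter or annotation. The 8 libraries with a file of their own hold the same values as the table. Genes above 1 RPKM in at least 2 libraries (11971) entered 1 model over the 3 subsets on log2(RPKM + 1), fitted by limma (version 3.58.1, R 4.3.3) with an intensity trend and Benjamini-Hochberg adjustment. A fold on that scale understates the change of low genes. The model was also run on simulated data, with noise drawn separately for each library. The simulation held no effect shared by same-numbered libraries, and no rate from it is given here.

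The members, gene lists and rules were chosen with earlier results of these data known, so no list is independent evidence. Genes named were those of a fixed set, up to 10 called genes with the largest non-overlapping difference per comparison, the 2 most abundant per class and those nearest the bound. Slc12a3, Slc12a4, Slc12a5, Slc25a24, Slc25a27, Slc25a30, Slc25a37, Slc25a38, Slc25a4, Slc36a1, Slc38a9, Slc39a6, Slc41a3, Slc43a1, Slc43a2, Slc4a7, Slc4a8, Slc52a3, Slc6a9, Slc7a7 and Slc8a1 were named after their values were seen, as was the class of Slc36a1os and Slc4a1ap. Promoter windows were taken from RefSeq (GRCm38.p6) by gene, apart from the build of the table. Alternatives covered scaling, filter, pseudocount, trend, voom on recovered reads, and libraries left out. Results for a few genes are not reported here.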

Additional observations from a re-analysis of the deposited data

How the results depend on the processing

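Of 1145 alternative fits of calls for named genes, 1032 kept the call, 113 lost it and 0 changed direction. The 49 calls between cDC1 and cDC2 became 75 when these subsets were fitted alone, and the 7 between mcDC and cDC2 became 4. Leaving out 1 library gave 31 to 71 calls between cDC1 and cDC2, 19 to 55 between mcDC and cDC1, 4 to 14 between mcDC and cDC2, and 29 to 70 by the F test. The cause of these shifts was not tested. The replicate numbers follow the order of the library titles, which run through cDC1, cDC2 and mcDC in turn. The labels state no pairing, so the main fit used none, and the numbers were checked for it. Deviations from the subset means correlated at 0.07 to 0.55 in the 9 same-numbered pairs and at -0.55 to 0.01 in the others. In this check 9 of 9 libraries correlated best with their own number, a hint from the data and the title order and not a stated design. With that number as a replicate block the counts were 64, 44, 14 and 66, and 0 of 64 named calls were lost. Some genes given above as not called passed the threshold with the block. Between cDC1 and cDC2 the limma adjusted p was then 0.0059 for Slc16a1 and 0.03 for Slc1a5, but 0.091 for Slc11a2. Without mcDC replicate 3 as well, an alternative chosen after seeing the data, the block gave 81, 59, 11 and 81. Quantile normalization gave 18 genes higher and 16 lower in mcDC than in cDC1, and voom on recovered reads 15 and 19. The smallest libraries, all mcDC, limit the precision of low genes.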
